A study of Homo sapiens with 24 samples.

Results

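The 10 keratin genes, KRT5, KRT14, KRT15, KRT17, KRT6A, KRT16, KRT7, KRT8, KRT18 and KRT19, were taken from the count table by symbol. All 10 were among its 59251 rows, and 9 of the 10 passed the filter on low counts that left 20820 genes for testing; KRT19 did not. RNA came from 24 libraries of MCF10A, an established line of non-tumorigenic breast epithelial cells. It was used as 2 derivatives that the labels call non-transformed (PE) and MYC-transformed (PM). The control cultures carried a GFP hairpin, and the others carried hairpin A or hairpin B, both directed at the chromatin remodelling ATPase CHD1. The 6 groups of 4 libraries are written PE GFP, PE A, PE B, PM GFP, PM A and PM B. All cultures, controls included, received doxycycline at 50 ng/ml for 72 h and grew in medium with horse serum, EGF, hydrocortisone, cholera toxin and insulin. The letters PE and PM, the way MYC transformation was done and the clonality of the lines were not stated in the labels.

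Keratins are the intermediate filament proteins of epithelial cells. A filament is built from pairs of a type I and a type II chain, so the genes are usually read as partners: KRT5 (type II) with KRT14 or KRT15 (type I) in basal cells, KRT6A (type II) with KRT16 or KRT17 (type I) in activated, wounded or stressed epithelium, and KRT8 or KRT7 (type II) with KRT18 or KRT19 (type I) in simple, luminal epithelium. In the breast, KRT5, KRT14 and KRT17 are used as markers of basal and myoepithelial cells and KRT8, KRT18 and KRT19 as markers of luminal cells. The type II genes and KRT18 lie in a cluster on chromosome 12 and the other type I genes in a cluster on chromosome 17.

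Library totals ran from 4.14 to 93.3 M counts with a median of 49.5 M. The smallest total was that of PE GFP replicate 1, PM A replicate 4 had the fewest genes with a count among the PM libraries, and PM B replicate 3 had the most of all libraries. The targeted gene, CHD1, averaged 78.8 CPM (counts per M of the TMM-scaled total) in PE GFP and 90.0 CPM in PM GFP, against 28.1 to 31 CPM in the 4 groups with a CHD1 hairpin. The 9 epithelial marker genes summed to 2826 to 4484 CPM in PE GFP and 1782 to 2152 CPM in PM GFP, and all were detected in every group, although CDH1 (E-cadherin) averaged 0.309 ± 0.257 CPM in PE B. The immune markers PTPRC, CD3E and MS4A1 reached at most 1.11 CPM in any library. All 7 listed immune markers, CD68 and CD14 among them, summed to 64.8 to 76.1 CPM in PE GFP. DCN, a fibroblast matrix gene that is also a marker list member here, reached 55.1 CPM.

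The sequences of these genes bear on how far each row can be told from its relatives, because no source used here says how multiply mapping reads were counted. In the GENCODE release 29 transcripts, the coding part of KRT14 was 88.6% identical to that of KRT16 and 85.2% to that of KRT17 over the aligned bases, and KRT6A was 97.5% identical to KRT6B and 97.9% to KRT6C. The 60 bases on which KRT14, KRT16 and KRT17 are most alike are in exon 1 of each gene, at chr17:41586424-41586483, chr17:41612272-41612331 and chr17:41624192-41624251 (GRCh38, minus strand). They are shown 5′ to 3′ along the coding strand, with bases that differ from KRT14 in capitals:
KRT14: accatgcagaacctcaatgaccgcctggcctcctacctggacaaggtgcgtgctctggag
KRT16: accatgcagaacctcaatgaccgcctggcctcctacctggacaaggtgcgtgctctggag
KRT17: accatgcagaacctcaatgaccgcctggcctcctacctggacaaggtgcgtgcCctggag
A read lying within this stretch cannot separate KRT14 from KRT16. The least alike 60 bases that align without a gap within 1 exon are also in exon 1, at chr17:41586317-41586376, chr17:41612165-41612224 and chr17:41624085-41624144, where KRT16 differs from KRT14 at 4 bases and KRT17 at 23:
KRT14: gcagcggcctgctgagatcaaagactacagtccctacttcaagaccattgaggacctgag
KRT16: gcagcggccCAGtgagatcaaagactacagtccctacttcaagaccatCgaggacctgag
KRT17: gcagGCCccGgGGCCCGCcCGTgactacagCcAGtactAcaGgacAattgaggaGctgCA

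For KRT6A, KRT6B and KRT6C the least alike such stretch is in exon 2, at chr12:52491555-52491614, chr12:52450439-52450498 and chr12:52472099-52472158 (GRCh38, minus strand), and holds 9 differences from KRT6A in KRT6B and 5 in KRT6C, in capitals:
KRT6A: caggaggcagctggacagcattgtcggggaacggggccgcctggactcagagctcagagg
KRT6B: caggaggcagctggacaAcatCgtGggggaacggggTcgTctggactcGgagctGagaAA
KRT6C: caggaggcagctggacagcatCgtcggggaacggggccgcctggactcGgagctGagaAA
Of all 50-base stretches of the chosen transcript, 39.1% of those of KRT6A, 32.7% of KRT8, 31.8% of KRT18, 23.8% of KRT14, 22% of KRT16 and 16% of KRT17 occurred in a transcript of another gene. The shares were 3.99% for KRT5, 1.79% for KRT19, 0.997% for KRT7 and 0.328% for KRT15. In the count table the pseudogene rows of KRT8 (52 rows) held a median of 2.35% of the counts of KRT8 and these rows together. Those of KRT18 (68 rows) held 0.536% in the same way. The pseudogene rows of KRT17 held a median of 1.01% and up to 12.2% (PE B replicate 2). For KRT16 the median was 0.074% and the highest share 10.3% (PM B replicate 3). Adding the pseudogene rows to KRT8, KRT18, KRT17 and KRT16, and KRT6B and KRT6C to KRT6A, changed no call of a member in any of the 9 comparisons. KRT8 and KRT18 overlap on opposite strands as annotated, and KRT7 overlaps its antisense gene KRT7-AS. No source used here gives the strand setting of the counting, and reads of such partners may not be separated.

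In GRCh38 (GENCODE release 29) the type II genes are KRT5 at chr12:52514575-52520687 (minus strand), KRT6A at chr12:52487174-52493257 (minus strand), KRT7 at chr12:52232520-52252186 (plus strand) and KRT8 at chr12:52897187-52949954 (minus strand), and the type I genes are KRT18 at chr12:52948871-52952901 (plus strand), KRT14 at chr17:41582279-41586921 (minus strand), KRT15 at chr17:41513743-41522529 (minus strand), KRT16 at chr17:41609778-41615899 (minus strand), KRT17 at chr17:41619441-41624842 (minus strand) and KRT19 at chr17:41523617-41528308 (minus strand). The 10 genes spanned a wide range of levels. Per kilobase of transcript, the mean level in PE GFP was highest for KRT7 at 1007 CPM per kb, followed by KRT6A at 855 and KRT5 at 511 CPM per kb. KRT18 was at 140.5 and KRT8 at 111 CPM per kb. The basal and stress type I genes were lower, with KRT17 at 46.2, KRT14 at 23.7 and KRT16 at 19.2 CPM per kb. KRT15 was at 1.35 CPM per kb over its annotated transcript of 5237 bases, of which 1371 are coding. On this scale KRT5 and KRT6A were far above KRT14, KRT15, KRT16 and KRT17, whereas KRT8 and KRT18 were close to each other, and KRT18 was the most abundant of the 6 type I genes. KRT19, a type I keratin of luminal cells, had 0 to 10 counts per library and was at 0 in 12 of 24 libraries. In PM GFP it had no count in any library, which allows up to 0.0143 CPM over the 4 libraries (3 counts of their summed total, counting error only). The other groups had 0 to 9 counts in PE GFP, 0 to 8 counts in PE A, 0 to 2 counts in PE B, 0 to 9 counts in PM A and 1 to 10 counts in PM B per library.

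**Figure D1:**
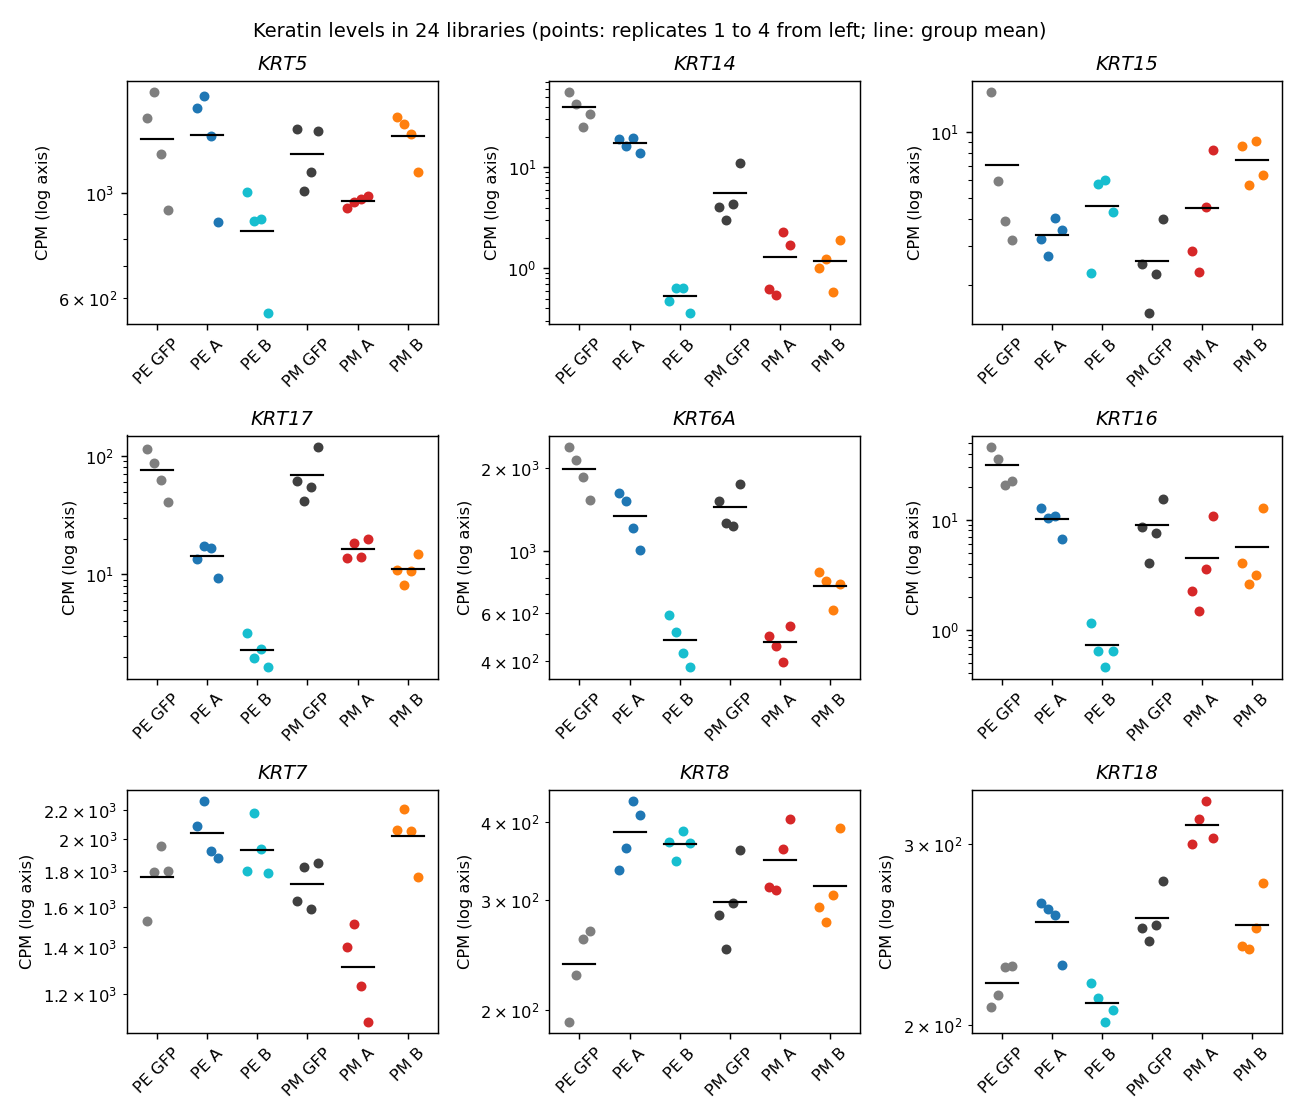
Level of each tested keratin in CPM on a log axis, by group of line and hairpin; points are the 4 libraries of a group (replicates 1 to 4 from left) and the line is their mean. KRT14, KRT17, KRT16, KRT5 and KRT18 have their lowest mean in PE B. Over all libraries KRT7, KRT8 and KRT18 range from 1096 to 2263, 191 to 433 and 201 to 331 CPM.

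In PE cells both CHD1 hairpins went with lower KRT17 and KRT6A and higher KRT8, and hairpin B went with far lower KRT14 and KRT16 and lower KRT5. Of the 9 tested members, edgeR's quasi-likelihood test called 4 under hairpin A, 2 higher and 2 lower, where 20.2% of all tested genes were called (10.9% higher and 9.33% lower). Under hairpin B it called 6, 1 higher and 5 lower, against 26.8% of all genes (13.6% higher and 13.2% lower). The median log2 change of the tested members was -0.56 under hairpin A and -0.64 under hairpin B, against -0.0019 and 0.0090 over all tested genes. The 2 hairpins are compared with the same 4 GFP libraries, so their results are not independent. In such bulk samples, fewer cells that express a gene and less of its RNA per cell cannot be told apart.

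Among the basal keratins, KRT14, the type I partner of KRT5, was at 55.8, 42.8, 25 and 34.1 CPM in replicates 1 to 4 of PE GFP, 19.3, 16.4, 19.6 and 13.9 CPM in PE A and 0.474, 0.641, 0.640 and 0.360 CPM in PE B. The 3 groups did not overlap, and the PE B values rest on 14 to 51 counts per library. KRT14 fell by 6.22 on the log2 scale under hairpin B (approximate SE 0.54, adjusted p = 3.96e-08). Under hairpin A the difference was -1.16 (approximate SE 0.40, adjusted p = 0.0505), which did not pass the threshold. KRT17, a type I keratin of basal and activated epithelium, was at 115, 87.3, 62 and 40.7 CPM in PE GFP, 13.5, 17.5, 16.8 and 9.27 CPM in PE A and 3.22, 1.97, 2.36 and 1.63 CPM in PE B. Again no library of one group reached the range of another. KRT17 fell by 2.39 under hairpin A (approximate SE 0.35, adjusted p = 5.28e-05) and fell by 5.03 under hairpin B (approximate SE 0.41, adjusted p = 1.87e-08).

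KRT5, the main type II keratin of basal cells, was at 1430.2, 1624, 1206 and 918 CPM in PE GFP and 1505, 1596, 1317 and 868 CPM in PE A, and these groups overlapped. In PE B it was at 1005, 873, 881 and 559 CPM, with only replicate 1 inside the range of PE GFP. The log2 difference was 0.031 under hairpin A (95% interval -0.38 to 0.44), and KRT5 fell by 0.64 under hairpin B (approximate SE 0.20, adjusted p = 0.0204). KRT15, a type I keratin associated with basal progenitor cells, stood at 7.04 ± 5.51 CPM in PE GFP, 3.38 ± 0.560 CPM in PE A and 4.59 ± 1.72 CPM in PE B (SD, n = 4 each). Replicate 1 of PE GFP, at 15.1 CPM, was the highest of these 12 values, and the groups overlapped. Neither log2 difference of KRT15, -0.87 under A and -0.43 under B, passed the threshold.

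Of the stress keratins, KRT6A fell under both hairpins and KRT16 under hairpin B. KRT6A, the type II member induced in activated epithelium, was at 2389, 2131, 1853 and 1525 CPM in PE GFP, 1622, 1516, 1212 and 1013 CPM in PE A and 589, 511, 429 and 380.0 CPM in PE B. Replicate 1 of PE A lay inside the range of PE GFP, and all PE B libraries lay below both groups. KRT6A fell by 0.56 under hairpin A (approximate SE 0.18, adjusted p = 0.0309) and fell by 2.05 under hairpin B (approximate SE 0.18, adjusted p = 5.80e-08). KRT16, its type I partner, was at 46.5, 36.2, 20.6 and 22.8 CPM in PE GFP, 12.8, 10.3, 10.8 and 6.69 CPM in PE A and 1.16, 0.641, 0.452 and 0.636 CPM in PE B, without overlap between the groups. It fell by 5.46 under hairpin B (approximate SE 0.72, adjusted p = 9.52e-06), on 14 to 46 counts per PE B library. The difference under hairpin A, -1.60, had an adjusted p of 0.0577 and was not called.

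Of the simple keratins, KRT8 rose under both hairpins and KRT18 under hairpin A. KRT8, the type II keratin of simple epithelium, was at 191, 228, 260.2 and 268 CPM in PE GFP, 336, 365, 433 and 411 CPM in PE A and 372, 347, 387 and 371 CPM in PE B. Every library with a CHD1 hairpin was above every GFP library. KRT8 rose by 0.70 under hairpin A (approximate SE 0.13, adjusted p = 3.46e-04) and by 0.63 under hairpin B (approximate SE 0.13, adjusted p = 5.95e-04). Its partner KRT18 was at 208, 214, 228 and 228 CPM in PE GFP, 263, 259, 256 and 229 CPM in PE A and 219.6, 212, 201 and 207 CPM in PE B. It rose by 0.20 under hairpin A (approximate SE 0.061, adjusted p = 0.0204), and its difference under hairpin B was -0.066 (95% interval -0.20 to 0.063). KRT7, the other type II keratin of simple and glandular epithelium, averaged 1766 ± 177 CPM in PE GFP, 2037 ± 176 CPM in PE A and 1925 ± 182 CPM in PE B, and its differences of 0.21 and 0.12 did not pass the threshold.

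Some of these calls in PE depended on single libraries or on the fit. The KRT6A call under hairpin A was lost without PE GFP replicate 1 or 2 or PE A replicate 3 or 4 (adjusted p 0.08 to 0.105), and over all alternatives its adjusted p ran from 0.00746 to 0.105. The KRT18 call under hairpin A was lost without PE GFP replicate 1 or 2 or PE A replicate 1, 2 or 3 (0.0526 to 0.0772, range 0.00775 to 0.116). The KRT5 call under hairpin B was lost without PE GFP replicate 1 or 2 or PE B replicate 4 (0.0603 to 0.0853, range 0.00345 to 0.107). KRT14 and KRT16, just short of the threshold under hairpin A, passed under several alternatives. KRT14 passed in 7 of 18 (range 0.00277 to 0.14), among them DESeq2 (0.0336), limma-voom (0.00277) and the fit without PE GFP replicate 3 (0.0396). KRT16 passed in 6 of 18 (range 0.00931 to 0.137), among them DESeq2 (0.02) and limma-voom (0.0141). Each of the other called changes in PE passed under every alternative run.

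**Figure D2:**
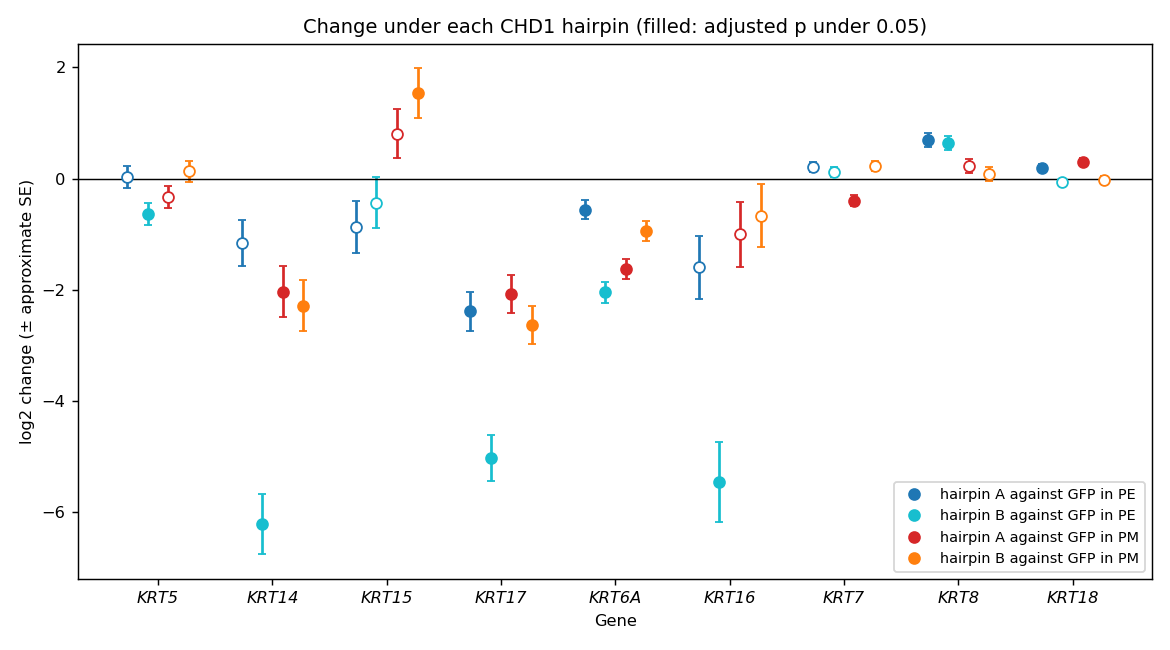
Log2 change of each tested keratin under each CHD1 hairpin against the GFP hairpin of the same line, with the approximate SE as error bar; filled points have an adjusted p under 0.05. KRT14, KRT17 and KRT16 under hairpin B in PE lie at -6.22, -5.03 and -5.46, below all other points.

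In PM cells, KRT14, KRT17 and KRT6A were lower under each CHD1 hairpin, while KRT16 and KRT5 did not pass the threshold under either. Of the 9 tested members 5 were called under hairpin A, 1 higher and 4 lower, against 27.8% of all genes (13.4% higher and 14.3% lower). Under hairpin B 4 were called, 1 higher and 3 lower, against 28.1% (13.6% higher and 14.4% lower). The median log2 change of the tested members was -0.39 under hairpin A and -0.022 under hairpin B, with -0.0059 and 0.014 over all tested genes. Both hairpins were again set against the same 4 GFP libraries.

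KRT14 started from a low level in PM GFP, 4.07, 3.02, 4.30 and 11 CPM in replicates 1 to 4, where replicate 4 was well above the others. It was at 0.623, 0.541, 2.27 and 1.69 CPM in PM A and 1.00, 1.24, 0.580 and 1.92 CPM in PM B, all below the lowest GFP library. It fell by 2.03 under hairpin A (approximate SE 0.46, adjusted p = 0.00213) and fell by 2.28 under hairpin B (approximate SE 0.46, adjusted p = 8.45e-04). KRT17 was at 60.9, 41.4, 54.4 and 120.0 CPM in PM GFP, 13.9, 18.4, 14 and 19.7 CPM in PM A and 10.8, 8.18, 10.6 and 14.9 CPM in PM B. Neither hairpin group overlapped the GFP group, and KRT17 fell by 2.07 under hairpin A (approximate SE 0.34, adjusted p = 1.07e-04) and fell by 2.63 under hairpin B (approximate SE 0.35, adjusted p = 9.15e-06). For KRT5 the means were 1205 ± 176 CPM in PM GFP, 961 ± 23 CPM in PM A and 1317 ± 149.7 CPM in PM B. Although the 4 PM A libraries lay below all PM GFP libraries, the log2 difference of -0.33 had an adjusted p of 0.255, and that under hairpin B was 0.13 (95% interval -0.29 to 0.54).

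KRT15, the 1 tested member called higher under hairpin B in PM, was at 2.49, 1.49, 2.25 and 4.00 CPM in PM GFP and 8.58, 5.68, 9.06 and 6.32 CPM in PM B, without overlap. It rose by 1.54 (approximate SE 0.44, adjusted p = 0.0115). In PM A it was at 2.85, 2.29, 4.53 and 8.27 CPM, which overlapped the GFP group, and the difference of 0.81 did not pass. KRT6A was at 1524, 1269.6, 1230.2 and 1755 CPM in PM GFP, 493, 453, 399 and 537 CPM in PM A and 844, 779, 612 and 763 CPM in PM B, and the 3 groups did not overlap. It fell by 1.62 under hairpin A (approximate SE 0.18, adjusted p = 1.09e-06) and fell by 0.95 under hairpin B (approximate SE 0.18, adjusted p = 4.05e-04). KRT16 was at 8.61, 4.03, 7.55 and 15.6 CPM in PM GFP, 2.23, 1.48, 3.55 and 10.9 CPM in PM A and 4.07, 2.60, 3.17 and 12.7 CPM in PM B. Replicate 4 was the highest library in each of the 3 groups, and neither difference passed (-1.0 and -0.66, 95% intervals -2.23 to 0.22 and -1.86 to 0.53). Without PM A replicate 4 the adjusted p of KRT16 under hairpin A was 0.0221 with a log2 difference of -1.83, and over the alternatives it ran from 0.0189 to 0.565.

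Of the simple keratins in PM, KRT7 fell by 0.39 under hairpin A (approximate SE 0.093, adjusted p = 0.00183), from 1629, 1825, 1589.9 and 1849 CPM in PM GFP to 1403, 1509.7, 1234 and 1096 CPM in PM A. Each PM A library was below each GFP library. KRT7-AS, which overlaps KRT7 on the other strand, had a log2 difference of -0.64 in the same comparison (adjusted p = 0.00145). Under hairpin B KRT7 was at 2061, 2202, 2052 and 1763 CPM, and its difference of 0.23 did not pass (adjusted p = 0.0675). It passed in 8 of 18 alternatives (range 0.00157 to 0.186). Among them were DESeq2 (0.0173), no filter (0.00157), the replicate number as a block (0.0281) and the fit without PM B replicate 4 (0.0242). KRT18 was at 248, 241, 250.2 and 276 CPM in PM GFP and 300.3, 318, 331 and 304 CPM in PM A, and rose by 0.30 (approximate SE 0.061, adjusted p = 1.98e-04). In PM B, at 239, 237, 249 and 275 CPM, its difference was -0.022. KRT8 averaged 298 ± 46.3 CPM in PM GFP, 349 ± 44.4 CPM in PM A and 317 ± 51.5 CPM in PM B, with differences of 0.23 and 0.086 that did not pass. KRT8 under hairpin A passed with the replicate number as a block (adjusted p 0.00655) and without PM GFP replicate 4 (0.0444, range 0.00655 to 0.491). All called changes of members in PM passed under every alternative run.

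The difference between the lines was tested directly, as the hairpin effect in PM minus that in PE. For hairpin A 2 of 9 tested members differed, both with a negative sign, against 6.66% of all genes (2.76% with a positive and 3.9% with a negative sign). KRT6A had a difference of -1.06 (approximate SE 0.25, adjusted p = 0.0131), where it fell by 1.62 in PM and fell by 0.56 in PE. KRT7 had a difference of -0.60 (approximate SE 0.13, adjusted p = 0.00487), with -0.39 in PM and 0.21 in PE. KRT8, at -0.47 (adjusted p = 0.131), was not called but passed with DESeq2 (0.0451), with no filter (0.0334) and with the replicate number as a block (4.98e-04, range 4.98e-04 to 0.247). For hairpin B 4 members differed, all with a positive sign, against 2.45% of all genes (1.47% positive and 0.98% negative). These were KRT16 at 4.80 (approximate SE 0.90, adjusted p = 0.00438), KRT14 at 3.93 (approximate SE 0.70, adjusted p = 0.00256), KRT17 at 2.40 (approximate SE 0.51, adjusted p = 0.0116) and KRT6A at 1.10 (approximate SE 0.25, adjusted p = 0.0183). All 4 are basal or stress keratins, and all 4 had fallen in PE B. The sign for KRT6A was thus opposite for the 2 hairpins. KRT14 and KRT16 started lower in PM, at 5.59 and 8.95 CPM in PM GFP against 39.4 and 31.5 CPM in PE GFP. Under hairpin B, KRT14 averaged 0.529 CPM in PE and 1.18 CPM in PM, low in both lines. KRT16 averaged 0.722 CPM in PE B and 5.64 CPM in PM B. The KRT17 difference did not pass when only the compared groups were fitted (0.0509) or with limma-voom (0.162, range 7.95e-05 to 0.162). KRT8, whose hairpin B difference was -0.55 (adjusted p = 0.131), was not called there either. It passed with DESeq2 (0.0282), with no filter (0.0135), with the replicate number as a block (9.35e-05) and without PM B replicate 4 (0.0251, range 9.35e-05 to 0.327).

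The 2 hairpins were also compared with each other. CHD1 averaged 29.2 and 28.1 CPM under A and B in PE and 31 and 29.5 CPM in PM. In PE 6 of 9 tested members were lower under B than under A and none was higher, against 16.6% of all genes called (7.48% higher and 9.09% lower). The log2 difference of B from A was -5.06 for KRT14 (approximate SE 0.53, adjusted p = 1.07e-06), -3.86 for KRT16 (approximate SE 0.70, adjusted p = 5.81e-04), -2.64 for KRT17 (approximate SE 0.39, adjusted p = 7.97e-05) and -1.49 for KRT6A (approximate SE 0.18, adjusted p = 6.88e-06). That of KRT5 was -0.67 and that of KRT18 -0.26. The KRT5 call was lost without PE A replicate 1, 2 or 3 or PE B replicate 3 or 4 (adjusted p 0.0529 to 0.101, range over the alternatives 0.0046 to 0.128). In PM 3 members differed, 2 higher under B (KRT6A, 0.67, and KRT7, 0.62) and 1 lower (KRT18, -0.33), against 26.3% of all genes (12.7% higher and 13.5% lower). KRT14 and KRT17, with differences of -0.25 and -0.56 in PM, did not pass.

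**Figure D3:**
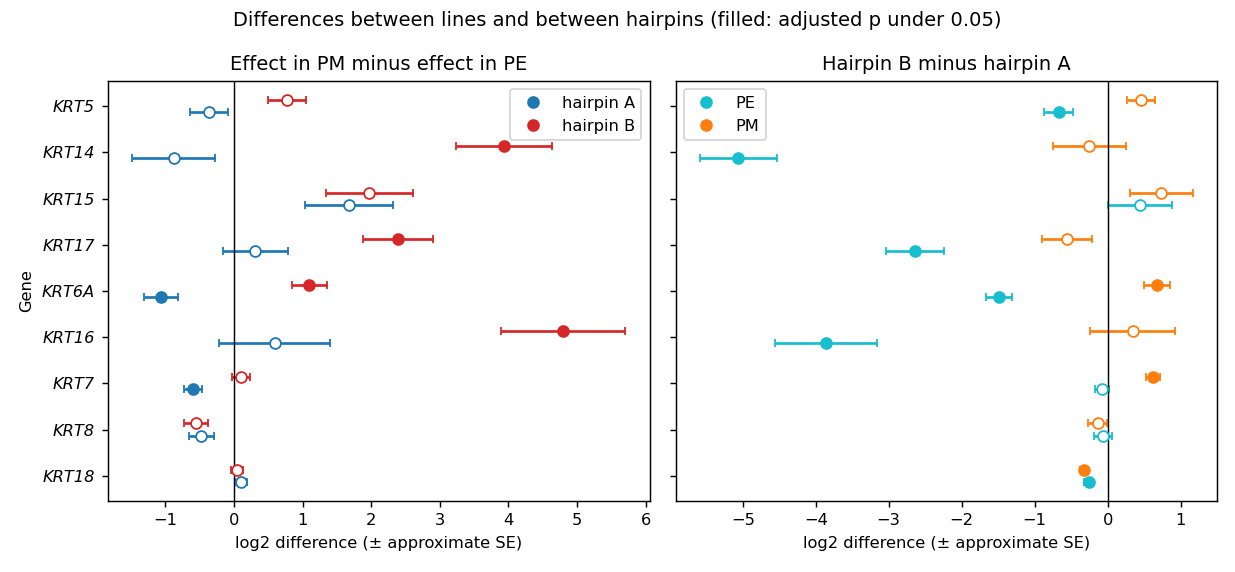
Left, the log2 effect of each hairpin in PM minus that in PE; right, the log2 difference of hairpin B from hairpin A within each line. Error bars are approximate SEs and filled points have an adjusted p under 0.05; KRT14, KRT17 and KRT16 stand farthest from 0 for hairpin B on the left and in PE on the right.

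Between the lines with the GFP hairpin, PM had less KRT14, KRT15 and KRT16 and slightly more KRT18 than PE. Of the 9 tested members 4 were called, 1 higher and 3 lower, against 25.5% of all genes (14.1% higher and 11.4% lower). KRT14 was lower in PM GFP, with a log2 difference of -2.79 (approximate SE 0.43, adjusted p = 5.87e-05), and its lowest PE library, at 25 CPM, lay above its highest PM library, at 11 CPM. KRT16 differed by -1.78 (approximate SE 0.58, adjusted p = 0.0285), also without overlap, and KRT15 by -1.28 (approximate SE 0.46, adjusted p = 0.0489) with overlap. KRT18 was higher by 0.21 (approximate SE 0.061, adjusted p = 0.00988). KRT17, at 76.3 ± 32.2 CPM in PE GFP and 69.2 ± 34.8 CPM in PM GFP, differed by -0.10 (95% interval -0.79 to 0.59). The differences of KRT5 (-0.10), KRT7 (-0.036), KRT6A (-0.45) and KRT8 (0.33) did not pass.

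Apart from KRT14, each of these line calls was lost under some alternatives. With all libraries of both groups kept, KRT15 was lost with no filter (adjusted p 0.108) and with the replicate number as a block (0.0599). It was also lost with the compared groups alone (0.0763) and with limma-voom (0.127), and KRT18 was lost with no filter (0.0667). KRT15 and KRT16 were each lost without PE GFP replicate 1 or 2 or PM GFP replicate 1, 2 or 3 (adjusted p 0.0817 to 0.179 and 0.0605 to 0.0845, ranges over the alternatives 0.00907 to 0.179 and 0.00224 to 0.0845). KRT18 was lost without PE GFP replicate 1 or PM GFP replicate 4 (0.0508 to 0.112, range 0.00489 to 0.112). In PE GFP the lower-depth replicates 1 and 2 were the highest for KRT14, KRT15, KRT17, KRT6A and KRT16, and in PM GFP replicate 4 was the highest for KRT14, KRT15, KRT17, KRT6A and KRT16. The part of depth in this was not tested. KRT6A, not called, passed in 5 of 18 alternatives (range 0.0238 to 0.188). It passed with DESeq2 (0.0238), the stricter filter (0.0306) and the replicate block (0.0321), and without PE GFP replicate 4 (0.0328) or PM GFP replicate 4 (0.0312). KRT8 also passed in 5 of 18 (range 1.95e-04 to 0.282). It passed with DESeq2 (0.0391), no filter (0.024) and the replicate block (1.95e-04), and without PE GFP replicate 4 (0.0465) or PM GFP replicate 2 (0.0368).

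Because a filament needs both types of chain, the counts were also summed by type. The 10 rows together held 0.579 ± 0.0772% of all counts in PE GFP, 0.523 ± 0.0696% in PE A, 0.384 ± 0.0451% in PE B, 0.497 ± 0.0510% in PM GFP, 0.338 ± 0.00873% in PM A and 0.479 ± 0.0381% in PM B (mean ± SD, n = 4). Within the 6 type I rows, KRT18 held 59.8 ± 10.4% of the counts in PE GFP, 84.9 ± 1.69% in PE A and 96.3 ± 0.656% in PE B. In PM the shares were 75.7 ± 7.76%, 92.1 ± 2.62% and 90.9 ± 1.90% in the same order of hairpins. KRT17 held 19.9% and KRT14 10.4% in PE GFP, and 1.05% and 0.243% in PE B. Shares sum to a whole, and KRT18 itself differed by -0.066 on the log2 scale between PE B and PE GFP. The ratio of KRT5 to KRT14 counts averaged 34.7 in PE GFP, 76.1 in PE A, 1603 in PE B, 262 in PM GFP, 1068 in PM A and 1358 in PM B. That of KRT6A to KRT16 averaged 66.8 in PE GFP, 135 in PE A and 713 in PE B, and 192 ± 86.5, 173 ± 114 and 190.1 ± 98.8 in PM GFP, PM A and PM B, where the groups overlapped. The mean KRT8 to KRT18 ratio ranged from 1.08 in PE GFP to 1.76 in PE B.

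**Figure D4:**
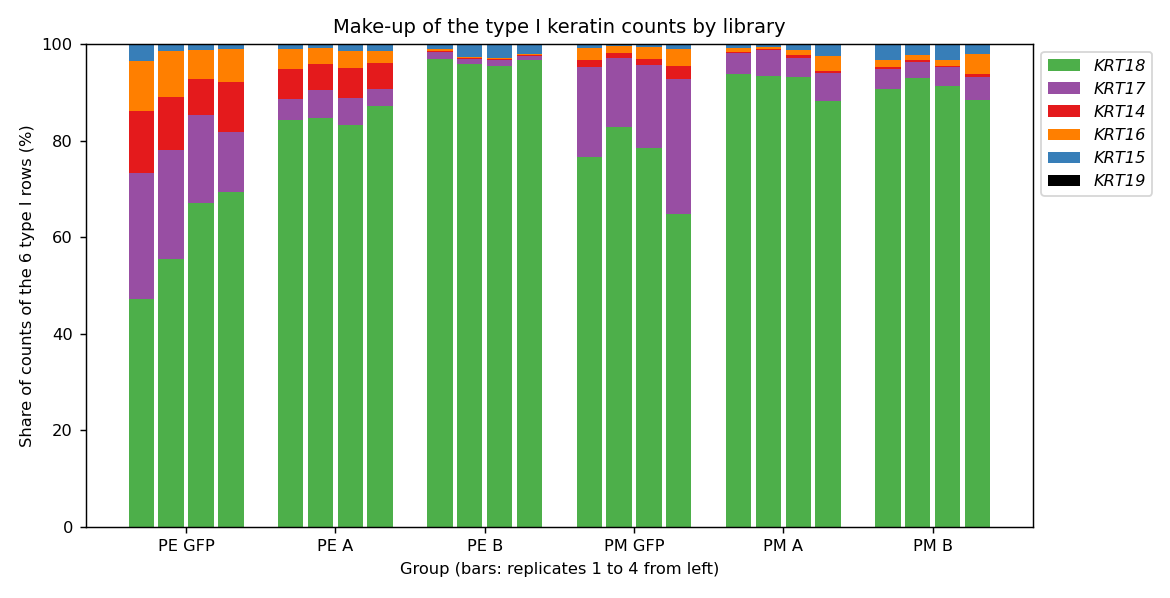
Share of each gene in the counts of the 6 type I keratin rows, in percent, for the 24 libraries in order of group and replicate. KRT18 takes a mean of 59.8% in PE GFP and 96.3% in PE B; that of KRT17 goes from 19.6% in PM GFP to 4.00% in PM B.

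For each tested member, the 2 other genes with the most similar pattern were those with the smallest root mean square (RMS) difference of centred log2 CPM over the 24 libraries, among genes averaging 5 CPM or more. The measure is a description, and genes of small variance come close to many others. KRT6A was closest to KRT6C (0.12), its near-identical neighbour, with which it can share reads, and to GABRA2 (0.31), a GABA-A receptor subunit. For both KRT17 and KRT16, ITGB6, an integrin subunit of activated epithelium, was among the 2 nearest genes (0.74 and 0.84). KRT14 was closest to S100A8 (1.33) and S100A9 (1.33), the calcium-binding pair of calprotectin, against its own spread of 2.30 log2 units. KRT5 was closest to CNKSR1 (0.25) and AGAP7P (0.26), and KRT15 to LINC00313 (0.51) and CACNG8 (0.58). KRT7 was closest to IL18 (0.14) and BRD8 (0.15), KRT8 to SCNN1A (0.11) and GAPDH (0.13), and KRT18 to ABCF1 (0.075) and EIF3C (0.082).

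Other keratins of the same families were read from a list of 22 genes, of which 10 passed the filter. Counts of called genes, here and for the later lists, are to be read beside the share called among all tested genes. Set against GFP of the same line, that share was 20.2% for PE A, 26.8% for PE B, 27.8% for PM A and 28.1% for PM B. Whether a list departs from these shares was not tested. In PE, 1 rose and 2 fell under hairpin A (median log2 change -0.11), and 2 rose and 2 fell under hairpin B (median -0.0023). In PM, 0 rose and 4 fell under A (median -0.19), and 2 rose and 5 fell under B (median 0.11). KRT6B and KRT6C, the paralogs of KRT6A, fell with log2 changes of -1.14 and -0.62 under hairpin A in PE, -2.76 and -2.16 under B in PE, -2.14 and -1.67 under A in PM and -1.15 and -0.90 under B in PM; reads shared with KRT6A may contribute to both. KRT75, a type II keratin of the hair follicle, rose by 3.02 and 3.68 in PE from 0.294 ± 0.129 CPM to 2.13 ± 0.354 CPM and 3.36 ± 0.531 CPM, and by 3.04 under hairpin B in PM. KRT81, a hair keratin, stood at 4175 ± 259 CPM in PM GFP, and fell with log2 changes of -0.98 under hairpin A and -0.37 under hairpin B in PM.

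Filaments are anchored at desmosomes and cross-linked by plakins, and 17 of 18 listed linkers and binding partners were tested. In PE 0 rose and 10 fell under hairpin A (median log2 change -0.33), and 2 rose and 13 fell under hairpin B (median -0.72). In PM the counts were 0 and 4 under A (median -0.15) and 2 and 8 under B (median -0.25). EPPK1 (epiplakin), which binds keratins, fell with log2 changes of -1.69 and -2.57 in PE, from 55.4 ± 10.8 CPM to 16.9 ± 1.01 CPM and 9.33 ± 3.67 CPM, and with one of -0.95 under hairpin B in PM. PKP2 (plakophilin 2), a desmosomal plaque protein, fell with log2 changes of -1.56 and -1.18 in PE and -0.39 under hairpin B in PM, and DSG3 (desmoglein 3), a desmosomal cadherin of basal epithelium, fell with log2 changes of -1.52 and -1.01 in PE. DSC3 (desmocollin 3) rose by 1.24 under hairpin B in PE and 0.52 in PM. FAM83H, which recruits a kinase to keratin filaments, fell with log2 changes of -0.41 and -0.72 in PE and -0.51 and -0.78 in PM. JUP (plakoglobin) fell with log2 changes of -0.73 and -0.53 in PE and -0.78 under hairpin A in PM, and PLEC (plectin) fell with log2 changes of -0.48 and -0.26 in PM.

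Among 8 tested of 11 other intermediate filament genes, 2 rose under hairpin A in PE, 3 rose and 1 fell under B in PE, 1 rose and 1 fell under A in PM, and 4 rose and 1 fell under B in PM (medians 0.43, 0.37, 0.062 and 0.39). VIM (vimentin), the filament protein of mesenchymal cells, rose by 0.45 and 0.49 in PE and by 0.51 under hairpin B in PM. NES (nestin) rose by 2.74 and 1.77 under hairpin B in PE and PM, at means of 4.11 and 1.38 CPM. LMNA, the lamin A/C gene of the nuclear lamina, rose by 0.41 and 0.49 in PE and by 0.29 under hairpin B in PM.

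Of 20 listed transcription factors of epithelial cells 17 were tested, and 1 rose and 4 fell under hairpin A in PE, 2 and 8 under B in PE, 3 and 5 under A in PM, and 2 and 6 under B in PM (medians -0.74, -0.27, -0.29 and -0.21). TP63, the p63 gene that is required for stratified and basal epithelium, was barely detected, at 0.510 ± 0.188 CPM in PE GFP, and fell under hairpin B in PE, to 0.0180 ± 0.0223 CPM. ELF3, an epithelial ETS factor, fell with log2 changes of -2.45 and -3.83 in PE and -2.29 under hairpin B in PM. KLF5, a factor of basal and proliferating epithelium, fell with log2 changes of -0.95 under hairpin A and -1.48 under hairpin B in PE, and -1.74 and -0.88 in PM. GRHL3 rose by 1.80 and 2.24 in PM. ZNF750 averaged 0.724 ± 0.692 CPM in PE GFP and had no count in any library of PE A and PE B.

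Of the 9 epithelial markers, all tested, 0 rose and 5 fell under hairpin A in PE, 3 and 5 under B in PE, 1 and 3 under A in PM, and 2 and 3 under B in PM (medians -0.63, -1.02, -0.24 and -0.021). LAMB3, which encodes a laminin chain of the epithelial basement membrane, fell with log2 changes of -1.65 under A and -1.91 under B in PE, and -2.39 under A and -1.84 under B in PM. CDH1 fell with log2 changes of -1.95 and -5.07 in PE. Of 5 tested luminal and hormone receptor markers of 6 listed, 0 rose and 1 fell under A in PE, 1 and 1 under B in PE, 0 and 1 under A in PM, and 0 and 1 under B in PM. The 6 genes summed to 536 to 992 CPM in PE GFP, 503 to 619 CPM in PE A and 565 to 729 CPM in PE B. In PM the sums were 547 to 624 CPM in PM GFP, 175 to 251 CPM in PM A and 430.4 to 512 CPM in PM B. In PE GFP and each PM group, 3 of the 6 genes stayed under 1 CPM in every library, so the sums rest on the others. The gene that fell under A was AREG, with log2 changes of -0.47 in PE and -1.67 in PM. FOXA1 (0.18) and GATA3 (-0.070) were not called under A in PM. The 9 fibroblast and endothelial markers summed to 58.4 to 72.2 CPM in PE GFP, 40.5 to 55.3 CPM in PE A, 30.7 to 49 CPM in PE B, 20.0 to 43.6 CPM in PM GFP, 16.1 to 21.1 CPM in PM A and 37.3 to 67.7 CPM in PM B, and the endothelial cadherin CDH5 did not exceed 0.243 CPM in any library. The 7 immune markers summed to 64.8 to 76.1 CPM in PE GFP, 68.2 to 78.9 CPM in PE A, 57 to 85.5 CPM in PE B, 51.7 to 55.2 CPM in PM GFP, 36.8 to 43.4 CPM in PM A and 36.1 to 44.4 CPM in PM B, of which CD68 and CD14 averaged 51.2 and 19 CPM in PE GFP. The part of other cells in the keratin differences was not tested.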

How the data were processed

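RNA-seq of 24 libraries was used. Per the labels' protocols, poly(A) RNA was selected and libraries were directional. The authors used, per the submitters' processing notes, FastQC, Trim Galore 0.4.0, HISAT2 2.2.1 with GRCh38 and featureCounts. Its strandedness, annotation release and multi-mapping options are among the details not given in the sources used here. The deposited values are raw counts per gene, 1 column per library. Replicates are labelled biological, and all pairs within a group differed by more than sampling noise.

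The deposited counts were analysed in edgeR 4.0.16 under R 4.3.3 (scaling by TMM, filterByExpr over the 6 groups with a minimum count of 10, 1 mean per group, robust quasi-likelihood test), and two-sided p-values were adjusted by Benjamini and Hochberg over 20820 genes in each of 9 comparisons, with a threshold of 0.05. A gene called, risen or fallen has passed this threshold. CPM values use the TMM-scaled totals, ± gives the SD, and each approximate SE is the log2 change over the root of the F statistic; the 95% intervals use it with 18 residual degrees of freedom. The test was also run on simulated counts of independent libraries, which hold no replicate structure and no outlying libraries. The outcome is not given here, and nothing is drawn from it. Coding sequences were taken from GENCODE release 29 (GRCh38) and aligned with Biopython 1.88. For each gene the protein-coding transcript with the best APPRIS tag was used, and among equals that with the longest coding part. Shared stretches were counted at 50 bases.

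The members and lists were chosen with earlier results of these data known. All 10 members and CHD1 are named, with at most 4 called genes of the largest change per list and comparison, and the 2 genes nearest to each member; some genes that this rule selects are not reported here. Alternatives were the DESeq2 1.42.0 Wald test, limma-voom (limma 3.58.1), and edgeR with RLE (relative log expression) scaling or library sizes alone. Also run were no filter, a stricter filter (5 CPM or more in 4 or more libraries) and a block for replicate number. So were the compared groups alone and leaving out each library. The other 2, leaving out 3 libraries that stand apart and adding paralog and pseudogene rows, were chosen after seeing the data. Libraries were not treated as paired by number. Counts per gene do not resolve isoforms, and proteins were not analysed here.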

Additional observations from a re-analysis of the deposited data

Results flagged for a closer look

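In 5 of the 59 combinations of a gene and a group that were examined, 1 library stood apart from the other 3, with a gap to its nearest library, as a ratio to the range of the group, above Dixon's 95% critical value for 4 samples. Chance alone gives such a library in about 1 in 20 groups. KRT14 in PM GFP was at 11 CPM in replicate 4 and 3.02 to 4.30 CPM in the others (ratio 0.839). KRT16 in PM B was at 12.7 CPM in replicate 4 and 2.60 to 4.07 CPM in the others (ratio 0.855). The other 3 were KRT19 on counts of 10 or fewer: replicate 3 of PE GFP at 0.137 CPM and of PM A at 0.0970 CPM, each beside 3 libraries at 0 (ratio 1), and replicate 1 of PM B at 0.130 CPM beside 0.0209 to 0.0317 CPM (ratio 0.901).

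The hairpin effect differed between PM and PE by the test of the difference itself in 6 results. For hairpin A the log2 difference was -1.06 for KRT6A and -0.60 for KRT7. For hairpin B it was 3.93 for KRT14, 2.40 for KRT17, 1.10 for KRT6A and 4.80 for KRT16. The effects of KRT6A went the same way in both lines, with the larger fall in PM under hairpin A and in PE under hairpin B.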

How the results depend on the processing

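Of the 81 results (9 tested members in 9 comparisons), 38 were called, 30 of them under every alternative. The other 8 lost the call under at least 1 and none changed sign. Of the 43 not called, 16 passed under at least 1 alternative, and 12 changed sign.

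The count of called members under hairpin A in PE was 4, ran from 2 to 6 over alternatives other than single libraries, and was 2 when PE GFP replicate 1, PM A replicate 4 and PM B replicate 3 were left out together; leaving out single libraries gave 2 to 5. For PM against PE, 4 in all, single libraries gave 1 to 6. The line difference for hairpin A went from 2 to 4 with DESeq2, and hairpin B against A in PM from 3 to 5 with the compared groups alone. The cause was not tested, and leaving libraries out also leaves fewer samples. The share of all tested genes called under each alternative is not given here. A change in these counts therefore cannot be set apart from a change in how many genes the fit calls.

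The sign of the following differences, none of which was called, was not stable. Not all were small: in the main fit KRT16 in the line difference for A was 0.59 and KRT15 under B in PE was -0.43. KRT5 under A in PE was -0.052 with library sizes alone, -0.015 with the 5 CPM filter and -0.10 to 0.17 without single libraries. KRT15 under B in PE was 0.14 with limma-voom, 0.098 without the 3 libraries and -0.70 to 0.11 without single ones. KRT18 under B in PM was 0.0042 with RLE scaling in edgeR and 0.0042 with the DESeq2 Wald test. It was 0.023 with library sizes alone, 0.011 with the 5 CPM filter and -0.059 to 0.028 without single libraries. KRT17 in PM against PE was 0.077 with limma-voom, 0.13 without the 3 libraries and -0.54 to 0.11 without single ones. Without the 3 libraries, KRT17 and KRT16 in the line difference for A were -0.020 and -0.47, and KRT14 in B against A in PM was 0.10. Without single libraries, KRT8 under B in PM ran from -0.020 to 0.20, KRT5 and KRT7 in PM against PE from -0.23 to 0.029 and -0.12 to 0.019, KRT16 and KRT17 in the line difference for A from -0.22 to 1.02 and 0.087 to 0.74, KRT8 in B against A in PE from -0.12 to 0.0032, and KRT16 and KRT14 in B against A in PM from -0.41 to 1.17 and -0.60 to 0.31. The cause was not tested.

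With the replicate number as a block, 5, 6, 6 and 5 members were called under hairpins A and B in PE and in PM. The share of all tested genes called with the block is not given here. Over all comparisons 7 results gained and 1 lost the call. Those gained were KRT16 under A in PE, KRT8 under A and KRT7 under B in PM, KRT8 and KRT6A in PM against PE, and KRT8 in both line differences; that lost was KRT15 in PM against PE (log2 difference -1.31). Correlations between libraries were also taken on log2 CPM after each gene's group mean was subtracted, so they describe what is left within groups. Those of same-numbered libraries ran from -0.037 to 0.12, and the median for different numbers in different groups was -0.015. Of 24 libraries, 21 correlated best, outside their own group, with one of the same number. What a replicate number stands for was not stated. In the column names, libraries of the same replicate number carry consecutive S numbers across the groups. The main fit has no term for replicate number. KRT19, with 0 to 10 counts per library, did not pass the filter.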
